A study of Mus musculus with 12 samples.

Results

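The data bear on whether mouse embryonic stem cells respond to Wnt3a in the same way with and without Tcf3. Tcf3 (now named Tcf7l1) is a DNA-binding protein of the Tcf/Lef family. RNA from Tcf3+/+ (wild-type) and Tcf3-/- (knockout) cells, each in control medium or after 24 h with 50 ng/ml recombinant Wnt3a, was hybridised to Affymetrix arrays, 3 arrays in each of 4 groups. All 12 arrays enter the comparison. Cells of both genotypes grew on gelatin without feeders in serum medium with Lif, a cytokine that sustains self-renewal, so the effects described are those of Wnt3a added on top of Lif and serum. The sources used here give neither the cell line nor the deleted exons or the number of clones. Whether numbered replicates were grown separately is not stated in the labels, and a p-value therefore reflects array-to-array spread, part or all of which may be technical.

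The quantity described is an interaction, namely the change with Wnt3a in knockout cells minus that in wild-type cells, on the log2 scale of array intensity. A negative interaction means that Wnt3a raised the gene less, or lowered it more, in knockout than in wild-type cells. A positive one means the opposite. It was computed for the 18193 genes that have a probe set with a single gene symbol, and 13811 of these passed a filter on low intensity and were tested with limma. A gene was called when its p-value, after Benjamini-Hochberg adjustment over all tested genes, was below 0.05. Values below are log2 intensities, differences are between means of 3 arrays, and SE is the standard error of the fit.

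Wnt ligands bind Frizzled receptors with Lrp co-receptors, which stops the destruction of beta-catenin. Stabilised beta-catenin enters the nucleus and binds Tcf/Lef factors. Of these, Tcf7l1 is the abundant member in mouse embryonic stem cells, where it is known mainly as a repressor that occupies many of the same sites as Oct4, Sox2 and Nanog. Naive pluripotency is the state of the pre-implantation epiblast, held by a network of factors that includes Esrrb, Klf4, Tfcp2l1 and Nanog.

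The targeted gene was lower in the knockout on every array. Tcf7l1 read 10.77, 10.90 and 10.87 on wild-type control arrays and 9.58, 9.37 and 9.45 on knockout control arrays, and with Wnt3a it read 10.50, 10.41 and 10.21 in wild type and 9.18, 9.22 and 8.89 in knockout. The remaining signal was well above the floor of 5.56 (an intensity of 47.2, the 40th percentile of all values), below which a level is treated here as not measured. Whether its probes lie in the deleted exons is not known here, so the signal left does not bear on the protein. With Wnt3a Tcf7l1 fell in both genotypes, the differences being -0.47 and -0.37, with an interaction of 0.10 (95% interval -0.21 to 0.42) that did not pass. All 7 stem cell markers were above the floor in every group. The trophectoderm factor Elf5, the endoderm product Afp, the fibroblast genes Col3a1 and Lum, and the blood and endothelial genes Ptprc, Tal1 and Cdh5 were below it in every group. Other markers of these types were above the floor in every group. They were 5 of 8 for fibroblasts or feeders, 3 of 5 for trophectoderm, 4 of 6 for primitive endoderm and 2 of 5 for blood or endothelium.

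Several things moved with the groups besides genotype and Wnt3a. Bacterial RNA spiked in before labelling (dap, thr, phe and lys) was below the floor on the control arrays of both genotypes and above it on the Wnt3a arrays, where the mean of dap was 11.29 in wild type and 11.12 in knockout. The hybridisation controls bioB, bioC, bioD and cre, which were above the floor in every group, were also brighter on the Wnt3a arrays, by 1.76 to 2.66 over both genotypes. Medium and the handling of samples and arrays therefore cannot be told apart in a Wnt3a effect. The interactions of the hybridisation controls were between -0.17 and -0.04. The signal of 18S ribosomal RNA did not cancel. Its group means were 8.81 and 10.69 in wild-type control and Wnt3a arrays and 9.25 and 9.98 in knockout, an interaction of -1.15, and its part in the called interactions was not tested beyond the fit with 18S as a covariate given below. Knockout control array 2 stood apart from the others in primitive endoderm markers. The summed intensity of 6 such markers ran from 454 to 2160 over the 3 knockout control arrays, against 601 to 789 in wild-type control, 800 to 1060 in wild type with Wnt3a and 1090 to 1270 in knockout with Wnt3a. On knockout control arrays 1, 2 and 3 Sox17 read 5.48, 8.31 and 6.78, and Dab2 read 7.19, 10.25 and 8.67. The summed intensity of 5 trophectoderm markers was 879 to 1500 in wild-type control, 805 to 886 in wild type with Wnt3a, and 338 to 376 and 340 to 359 in the knockout groups. In RNA from whole cultures, fewer cells of a type and less RNA per cell cannot be told apart. The part of these markers in the called interactions was not tested, and the interaction counts over all genes and over the naive, actin and Wnt target lists are also given without knockout control array 2.

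The difference between the genotypes in their Wnt3a effect was called for 563 genes. The interaction was higher for 304 genes and lower for 259, which is 2.2% and 1.88% of the 13811 tested and 4.08% in all. At least 2-fold interactions were 44 higher (0.319%) and 42 lower (0.304%). In wild type 2615 genes rose (18.9%) and 3118 fell (22.6%) with Wnt3a, of which 101 (0.731%) and 168 (1.22%) changed at least 2-fold. In knockout 1840 rose (13.3%) and 2032 fell (14.7%), of which 39 (0.282%) and 66 (0.478%) changed at least 2-fold. Without knockout control array 2 these knockout counts were 1403 and 1897. The order of the genotypes in these counts and the excess of falls both depended on the processing. With 18S as a covariate 11 genes rose and 1 fell in wild type, against 375 and 477 in knockout. The 18S signal itself differed between media by 1.88 in wild type and 0.73 in knockout. That fit therefore separates a Wnt3a effect from 18S less well in wild type, and its counts do not compare the genotypes on equal terms. With each array centred on its median, 3489 rose and 2197 fell in wild type, and 2663 rose and 1362 fell in knockout. Across the 13811 genes the Wnt3a effects of the genotypes, which share no array, correlated with a Pearson r of 0.64, as a description only, since genes are not independent and each effect contains the same difference between media in preparation. The median SE of the interaction was 0.125, against 0.0886 for a single Wnt3a effect.

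**Figure D1:**
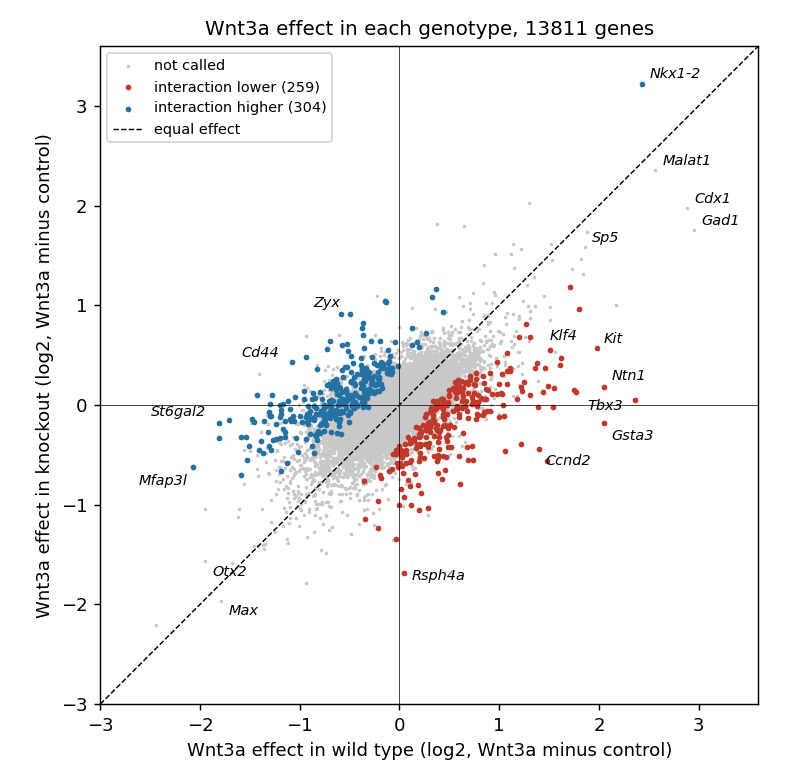
Wnt3a effect in wild-type cells (horizontal axis) against that in knockout cells (vertical axis), both as log2 differences between means of 3 arrays, for the 13811 genes tested. Red points have a called lower interaction (259) and blue points a called higher one (304), and they lie off the dashed line of equal effect, with Gsta3, Ntn1 and Tbx3 far to the right near no knockout effect, whereas Nkx1-2, Malat1, Cdx1 and Max lie far out in the same direction in both genotypes.

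In most called genes wild-type control was an extreme of the 4 group means. It was the lowest in 225 of the 259 lower interactions and the highest in 277 of the 304 higher ones. The other 3 groups did not always lie together. In Zyx every knockout array was below every wild-type array, and in Gsta3 every wild-type array was below every knockout array. Of the 42 genes with an at least 2-fold lower interaction, wild-type control was the lowest of the 4 group means in 37 (88.1%), against 30.9% of all genes tested. Their median Wnt3a effect was 1.20 in wild type and -0.15 in knockout. Of the 44 genes with an at least 2-fold higher interaction, wild-type control was the highest group in 43 (97.7%, against 32.4% of all genes tested), with median effects of -1.19 in wild type and 0.01 in knockout. In 14 of these 44 both knockout means lay below the floor, so that a further fall in knockout could not have been measured. The same wild-type control arrays enter both the interaction and these group means. The sign of an interaction itself favours wild-type control or knockout with Wnt3a as the extreme group. The shares over all genes are therefore no yardstick for 88.1% and 97.7%, and this pattern is a description and not a separate result.

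The counts depended on single arrays and on 18S. Without knockout control array 2 the interaction was higher for 196 genes and lower for 227. Higher calls numbered 67 without wild-type control array 3, 81 without wild-type Wnt3a array 2, 104 without knockout Wnt3a array 2 and 109 without knockout control array 3. They numbered 116 without each of wild-type control array 1, knockout control array 1 and wild-type Wnt3a array 3, 183 without knockout Wnt3a array 3 and 568 without wild-type Wnt3a array 1. Lower calls numbered 84 without wild-type control array 3, 94 without knockout control array 1, 99 without wild-type control array 1 or wild-type Wnt3a array 2, and 105 without knockout Wnt3a array 2. They numbered 106 without knockout control array 3, 116 without wild-type Wnt3a array 3 and 483 without wild-type control array 2. The knockout Wnt3a effect had 1130 higher and 1263 lower calls without knockout control array 3, and 1194 higher calls without knockout Wnt3a array 2. With the 18S signal of each array as a covariate, 1 gene was called higher and 5 lower. All 563 kept their sign in that fit and their median size was 0.625, against 0.637 without the covariate, while the median SE rose from 0.125 to 0.199. Of the genes named below, the calls of Tfcp2l1, Ntn1, Kit, Porcn and St6gal2 held in every alternative that tested them, the 18S covariate included. The calls of the other genes named were lost with that covariate, which is not repeated at each gene. The sizes were less stable than the calls. Over the alternatives other than the linear scale, Tfcp2l1 ran from -1.97 to -0.49. St6gal2 was tested in 23 of the 24 alternatives and was below the floor in 3 groups. The fits that left out an array did not repeat the filter on low intensity. With values raised to the floor, which was not one of the alternatives, its interaction was 0.30.

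Much of the strongest Wnt3a effect was present in both genotypes, where each effect also holds any difference in handling between the media. The part of handling in the shared changes was not tested. Of the 101 genes that rose at least 2-fold with Wnt3a in wild type, 58 (57.4%, against 13.3% of all genes tested) also rose in knockout and 1 fell there, and their median knockout effect was 0.53, against -0.01 over all genes tested. Of the 168 that fell at least 2-fold in wild type, 90 (53.6%, against 14.7%) also fell in knockout and 1 rose, with a median of -0.53, and 22 of the 168 were below the floor in both knockout groups. In the other direction, 33 of the 39 genes that rose at least 2-fold in knockout (84.6%, against 18.9%) rose in wild type, with a median wild-type effect of 1.15. Of the 66 that fell at least 2-fold in knockout, 49 (74.2%, against 22.6%) fell in wild type, with a median of -0.85. Because these sets were chosen for a large effect in the first genotype, a smaller median in the second is in part set by the choice.

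Genes of naive pluripotency had more called interactions than any other of the 25 gene lists examined. The lists and their members were chosen with earlier results of these data known, so these counts are a description and not an independent test. Of the 23 tested members of the naive list, 15 had a called lower interaction and none a higher one, where 1.88% of all genes tested were called lower. All 23 had a negative interaction, and the median was -0.92, against 0.01 over all genes tested. In wild type 19 of the 23 rose with Wnt3a and none fell by the same limma threshold, where 18.9% of all genes tested rose and 22.6% fell, and the median was 0.87. In knockout 5 rose and 3 fell, where 13.3% and 14.7% of all genes did, and the median was 0.10. At an unadjusted p below 0.05, 19 interactions were lower and 0 higher, where 9.98% of all genes tested were lower and 11.4% higher. Lower calls numbered 13 without knockout control array 2, 9 without knockout control array 1 and 9 without wild-type Wnt3a array 2, and 1 of 23 with 18S as a covariate, where the median was -0.84. In 13 of the 15 called genes wild-type control was the lowest group, and in 12 the Wnt3a-treated wild-type mean was still below the knockout control mean.

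**Figure D2:**
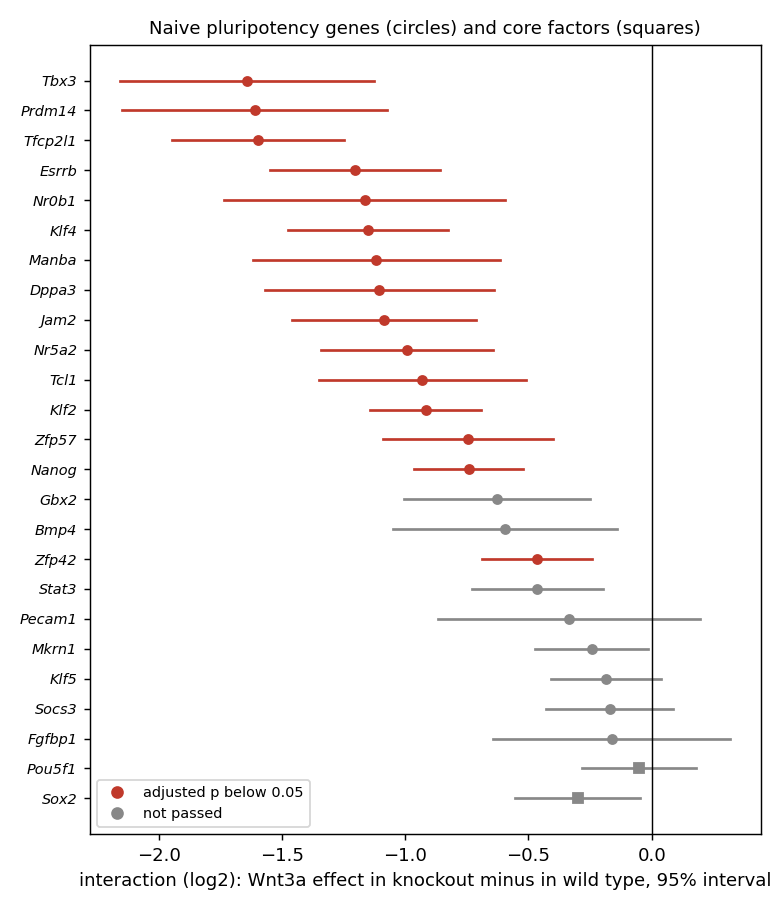
Interaction (horizontal axis, log2, Wnt3a effect in knockout minus in wild type) with its 95% interval for the 23 tested naive pluripotency genes (circles) and for the core factors Pou5f1 and Sox2 (squares). Red marks an adjusted p below 0.05, which 15 naive genes passed, from -1.64 for Tbx3 to -0.47 for Zfp42, and all 23 naive genes lie left of zero.

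Esrrb, an orphan nuclear receptor of the naive network, read 10.27, 10.53 and 10.21 on wild-type control arrays and 11.39, 11.67 and 11.88 with Wnt3a. In knockout it read 12.08, 12 and 12.02 in control medium and 12.12, 12.13 and 12.16 with Wnt3a. The wild-type groups did not overlap, and every knockout array, with or without Wnt3a, was above every wild-type array. Esrrb rose 2.48-fold in wild type and differed by 0.10 in knockout, an interaction of -1.20 ± 0.16 (SE, adjusted p = 0.00454).

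Tfcp2l1, a grainyhead-family transcription factor downstream of Lif and Stat3, had the same form. It read 10.14, 9.95 and 9.94 in wild-type control arrays and 11.48, 11.79 and 12 with Wnt3a, and in knockout 12.14, 12 and 12.10 in control medium and 12.15, 12.32 and 12.21 with Wnt3a. Wild-type control arrays stood alone, and the wild-type Wnt3a arrays lay at or below the knockout arrays. The interaction was -1.60 ± 0.16 (adjusted p = 0.00106). Tbx3, a T-box factor of the same network, had the largest interaction of the list, -1.64 ± 0.24 (adjusted p = 0.0065). It read 8.26, 8.25 and 8.38 on wild-type control arrays, 9.62, 10.18 and 10.42 on wild-type Wnt3a arrays, 11.02, 10.81 and 10.69 on knockout control arrays and 10.79, 11.03 and 11.10 on knockout Wnt3a arrays. Its wild-type rise of 1.77 left every wild-type Wnt3a array below every knockout array. On the linear intensity scale the Tbx3 call was lost.

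Nanog, a homeodomain factor central to pluripotency, was bright in all groups and changed less. Its values were 12.39, 12.40 and 12.43 in wild-type control and 13.18, 13.32 and 13.40 in wild type with Wnt3a, and 13.46, 13.45 and 13.28 in control medium and 13.49, 13.57 and 13.58 with Wnt3a in knockout. It rose by 0.89 in wild type, and the 0.15 in knockout did not pass, an interaction of -0.74 ± 0.10 (adjusted p = 0.00502). Klf4, a zinc-finger factor activated by Lif, rose in both genotypes. It read 10.34, 10.49 and 10.35 in control medium and 11.82, 12.04 and 12.18 with Wnt3a in wild type, and 11.71, 11.67 and 11.67 in control medium and 11.99, 12.09 and 12.36 with Wnt3a in knockout. The groups did not overlap within either genotype, and the rise was 1.62 in wild type and 0.47 in knockout, with an interaction of -1.15 ± 0.15 (adjusted p = 0.00427).

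Klf2, a related factor, moved in opposite directions. In wild type it rose from 11.87, 11.89 and 11.79 to 12.34, 12.30 and 12.38. In knockout it fell from 13.05, 12.79 and 12.96 to 12.59, 12.46 and 12.47. No groups overlapped in either genotype, and the called effects of 0.49 and -0.43 gave an interaction of -0.92 ± 0.10 (adjusted p = 0.00236). Prdm14, which restrains Fgf signalling and DNA methylation in naive cells, read 7.35, 7.98 and 7.55 in wild-type control and 8.48, 8.89 and 9.16 with Wnt3a, against 9.43, 9.21 and 9.45 in control medium and 8.84, 9.04 and 9.03 with Wnt3a in knockout. It rose by 1.22 in wild type, the -0.39 in knockout did not pass, and the interaction was -1.61 ± 0.25 (adjusted p = 0.00811). Nr5a2, a nuclear receptor that binds regulatory DNA of Pou5f1, rose in both genotypes, by 1.36 and 0.37, with an interaction of -0.99 ± 0.16 (adjusted p = 0.00904). The calls of Esrrb, Tfcp2l1, Tbx3, Nanog, Klf4, Klf2, Prdm14 and Nr5a2 held whichever single array was left out.

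**Figure D3:**
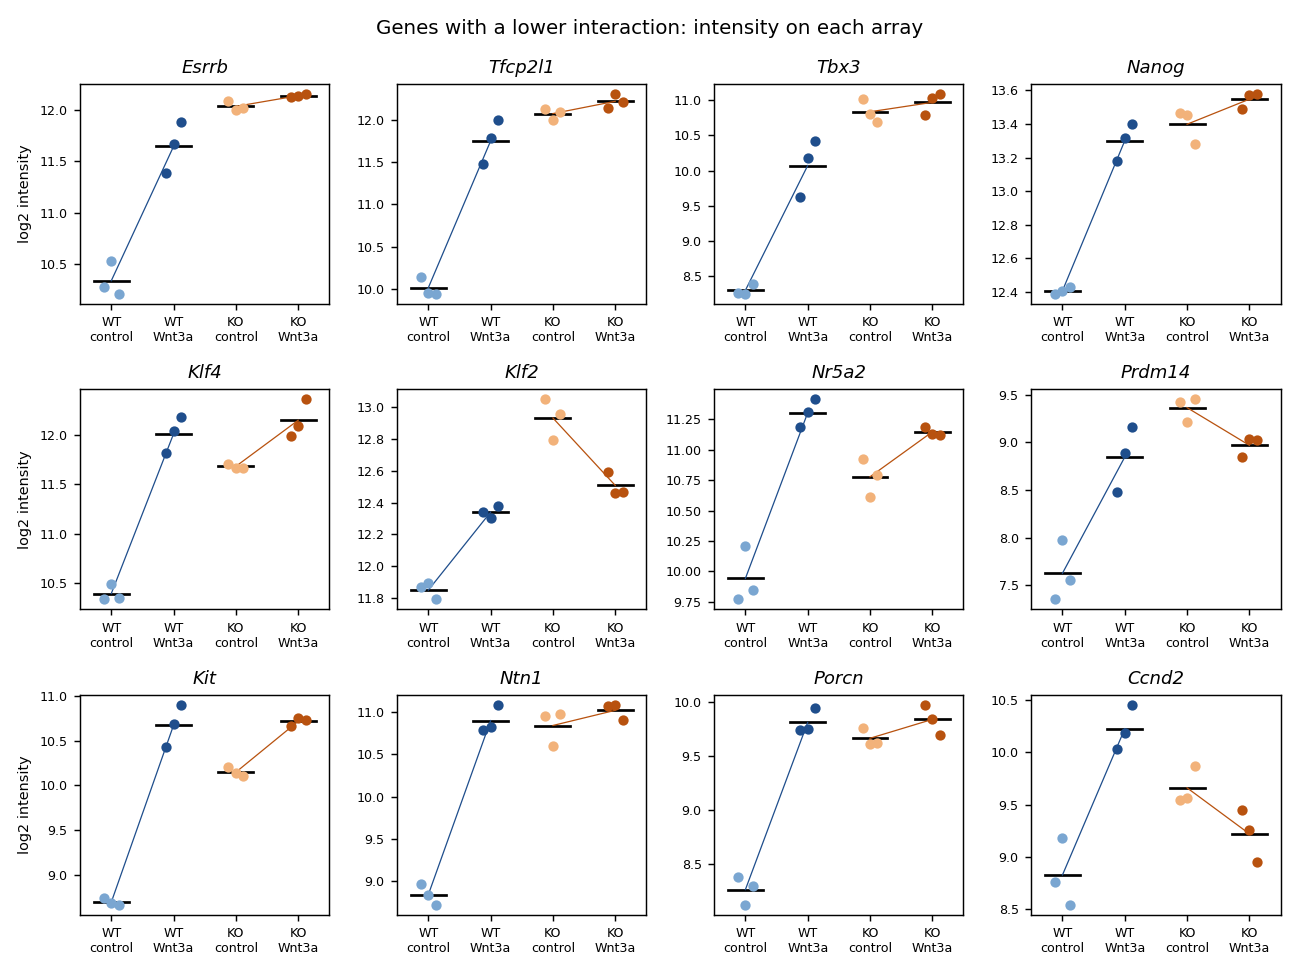
Log2 intensity (vertical axis) of 12 genes with a called lower interaction on each of the 12 arrays, by genotype (WT wild type, KO knockout) and medium, with points for arrays and black bars for means of 3. Wild-type control is the lowest group in every panel, the mean of Esrrb goes from 10.34 to 11.64 in wild type against 12.03 to 12.14 in knockout, and Klf2, Prdm14 and Ccnd2 have a lower mean with Wnt3a in knockout.

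Jam2, a junction protein listed with naive cells, had an interaction of -1.09 (adjusted p = 0.00852) that held whichever array was left out. Dppa3, a maternal-effect protein that shields DNA methylation, rose by 0.46 in wild type and fell by 0.65 in knockout, an interaction of -1.11 (adjusted p = 0.0202, and 0.0507 to 0.0516 with the omission of knockout control array 1 or wild-type Wnt3a array 2). It was the exception in level, since Dppa3 read 9, 8.89 and 8.95 on knockout control arrays, below the 9.70, 9.56 and 9.86 of wild-type control. Nr0b1, an orphan nuclear receptor that interacts with Oct4, had an interaction of -1.16 (adjusted p = 0.0328, and 0.0521 to 0.0928 without 9 of the 12 arrays, all but wild-type control array 2, wild-type Wnt3a array 1 and knockout Wnt3a array 3). Tcl1, an Akt co-activator, had one of -0.93 (adjusted p = 0.0254, and 0.0502 to 0.0671 without 7 of the 12 arrays, all but wild-type control array 2, knockout control array 3, wild-type Wnt3a array 1, knockout Wnt3a array 1 and knockout Wnt3a array 3). Zfp42, known as Rex1, had one of -0.47 (adjusted p = 0.0301, and 0.0537 to 0.0914 without 9 of the 12 arrays, all but wild-type control array 2, wild-type Wnt3a array 1 and knockout Wnt3a array 1). Manba, a lysosomal mannosidase, had one of -1.12 (adjusted p = 0.025, and 0.0523 to 0.0671 without 6 of the 12 arrays, all but wild-type control array 2, knockout control array 2, wild-type Wnt3a array 1, wild-type Wnt3a array 3, knockout Wnt3a array 1 and knockout Wnt3a array 3). The calls of Dppa3 and Manba were also lost on the linear intensity scale.

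Zfp57, which protects imprinted DNA methylation, did not rise in wild type. It fell by 0.96 in knockout, and its difference of -0.22 in wild type did not pass, which gave an interaction of -0.75 (adjusted p = 0.0274, and 0.0534 to 0.0705 without 7 of the 12 arrays, all but wild-type control array 2, knockout control array 2, wild-type Wnt3a array 1, wild-type Wnt3a array 3 and knockout Wnt3a array 1). Of the 8 naive genes not called, the homeobox gene Gbx2 and Stat3, which carries the Lif signal, came closest, at -0.63 (adjusted p = 0.064) and -0.46 (adjusted p = 0.0565). Klf5 and Socs3, the latter a direct Stat3 target, rose in both genotypes. Klf5 rose by 0.63 in wild type and 0.45 in knockout, an interaction of -0.19 (95% interval -0.41 to 0.04), and Socs3 rose by 0.81 and 0.64. Manba, Jam2, Zfp57, Stat3 and Socs3 were named after their values had been seen.

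The core factors differed less between the genotypes. Pou5f1, which encodes Oct4, rose by 0.20 in wild type, its 0.15 in knockout did not pass, and it had an interaction of -0.05 (95% interval -0.28 to 0.18), with means of 13.06 and 13.26 in wild type and 13.38 and 13.53 in knockout. That interval does not reach the -0.74 of Nanog. Sox2 rose in both, by 0.63 in wild type and 0.33 in knockout, and its interaction of -0.30 (95% interval -0.55 to -0.05, adjusted p = 0.161) did not pass.

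Promoter sequence was examined because Tcf/Lef factors bind DNA directly and the naive genes moved together. The core letters of the Tcf/Lef motif, CTTTGA, were searched on both strands in windows of 300 bases, 250 before to 50 after each annotated start. Over all 32851 promoter windows of the RefSeq table (GRCm38.p6), 16.0% held the motif, and 18.2% of 27025 genes had it in at least 1 window. Of the 24 genes with the largest interactions, with RIKEN, predicted and accession-like gene names passed over, 14 had a window and 4 of these (28.6%) held it. Of the 15 called naive genes, 11 had a window and 1, Nr0b1, held it. These shares rest on few genes and describe only these letters in this window. The 3 windows below belong to the naive gene with the motif and to the motif-holding genes of the largest negative and positive interactions whose calls held without any single array, with the motif in capitals on the strand of the gene. The Nr0b1 window lies at chrX:86191525-86191824, that of Csrnp3 at chr2:65845517-65845816 and that of St6gal2 at chr17:55445132-55445431, all on the plus strand. Capitals read TCAAAG where the motif lies on the opposite strand. The motif begins 139 bases before the start of Nr0b1, 227 before that of Csrnp3 and 138 before that of St6gal2.
Nr0b1: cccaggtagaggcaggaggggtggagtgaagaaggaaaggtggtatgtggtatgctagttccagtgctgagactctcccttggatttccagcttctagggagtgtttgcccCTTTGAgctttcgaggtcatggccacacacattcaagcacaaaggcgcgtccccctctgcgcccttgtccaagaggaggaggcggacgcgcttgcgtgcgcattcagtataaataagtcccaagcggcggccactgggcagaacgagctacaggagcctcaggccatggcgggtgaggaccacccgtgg
Csrnp3: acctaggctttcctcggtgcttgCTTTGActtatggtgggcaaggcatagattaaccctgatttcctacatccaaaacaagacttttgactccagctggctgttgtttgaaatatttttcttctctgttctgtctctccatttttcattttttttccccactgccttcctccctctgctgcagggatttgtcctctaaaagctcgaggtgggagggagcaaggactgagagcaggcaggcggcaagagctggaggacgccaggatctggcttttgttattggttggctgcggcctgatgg
St6gal2: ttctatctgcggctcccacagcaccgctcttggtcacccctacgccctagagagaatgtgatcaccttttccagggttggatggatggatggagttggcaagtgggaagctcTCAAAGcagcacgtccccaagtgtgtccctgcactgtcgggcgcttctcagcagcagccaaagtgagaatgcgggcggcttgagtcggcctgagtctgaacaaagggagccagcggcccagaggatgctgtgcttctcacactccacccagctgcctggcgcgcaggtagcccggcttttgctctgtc

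Components of the Wnt pathway itself were called in 4 of 56 cases (3 higher, 1 lower, against 4.08% of all genes tested). They were 2 ligands, a receptor and an enzyme that modifies ligands. Porcn, the acyltransferase that attaches the lipid Wnt ligands need for secretion, was the lower one. Its values were 8.37, 8.12 and 8.29 in control medium and 9.74, 9.75 and 9.94 with Wnt3a in wild type, and 9.76, 9.61 and 9.62 in control medium and 9.97, 9.84 and 9.69 with Wnt3a in knockout. Wild-type control arrays were below all others, and the other 3 groups overlapped. Porcn rose 2.93-fold in wild type, and the 0.17 in knockout did not pass, an interaction of -1.37 ± 0.13 (adjusted p = 0.00106).

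The ligand Wnt4 went the other way. It read 10.73, 9.74 and 10.26 on wild-type control arrays and 9.33, 8.91 and 8.67 with Wnt3a, against 7.33, 7.57 and 7.31 in control medium and 7.50, 7.34 and 7.68 with Wnt3a in knockout. It fell by 1.28 in wild type, where the groups did not overlap, and differed by 0.10 in knockout, an interaction of 1.38 (adjusted p = 0.0328, and 0.0571 to 0.0885 without 8 of the 12 arrays, all but wild-type control array 2, knockout control array 2, wild-type Wnt3a array 1 and knockout Wnt3a array 1). Wnt9a, another ligand, fell by 0.57 in wild type and rose at least 1.32-fold in knockout, where its control mean was below the floor (interaction 1.17, adjusted p = 0.0328, and 0.0503 to 0.0794 without 8 of the 12 arrays, all but wild-type control array 2, wild-type Wnt3a array 1, knockout Wnt3a array 1 and knockout Wnt3a array 2), and its call was lost on the linear scale. The receptor Fzd1 had an interaction of 0.63 (adjusted p = 0.0379, and 0.0621 to 0.103 without 8 of the 12 arrays, all but wild-type control array 2, wild-type Wnt3a array 1, knockout Wnt3a array 1 and knockout Wnt3a array 2). The receptors Fzd5 and Fzd6 had interactions of -0.63 and 0.71 that did not pass. Beta-catenin itself (Ctnnb1) read from 13.82 to 13.91 over the 12 arrays, with an interaction of 0.03 (95% interval -0.13 to 0.18). For Lef1 and Tcf7l2, other members of the Tcf/Lef family, the interactions were 0.31 (95% interval -0.16 to 0.77) and 0.58 (95% interval -0.16 to 1.31).

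Of 25 direct Wnt target genes tested, 1 was called higher and 1 lower, where 2.2% and 1.88% of all genes tested were, and the median interaction was -0.12. Without knockout control array 2, 2 were lower and 1 higher, and leaving out the other arrays gave 0 or 1 lower and 1 or 2 higher. In wild type 6 of the 25 rose with Wnt3a and 3 fell, where 18.9% and 22.6% of all genes did. In knockout 5 rose and 6 fell, where 13.3% and 14.7% of all genes did. Cdx1, a homeobox gene and a Wnt target in the embryo, was among the largest rises of either genotype. It read 6.68, 5.58 and 5.88 in wild-type control and 8.61, 8.87 and 9.31 with Wnt3a, and 7.49, 7.23 and 7.43 in control medium and 9.51, 9.34 and 9.22 with Wnt3a in knockout. The groups did not overlap within either genotype, and the rise was 2.88 in wild type and 1.97 in knockout. The interaction of -0.91 (95% interval -1.65 to -0.17, adjusted p = 0.147) did not pass, and it turned to a positive difference on the linear intensity scale.

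Sp5, a zinc-finger repressor induced by Wnt signals in many tissues, rose in both genotypes. Its values were 9.44, 8.08 and 8.59 in control medium and 10.78, 10.58 and 10.34 with Wnt3a in wild type, and 8.26, 8.20 and 8.62 in control medium and 10.01, 9.92 and 9.90 with Wnt3a in knockout. Every Wnt3a array was above every control array of its genotype. The rises of 1.86 and 1.58 gave an interaction of -0.28 (95% interval -1.07 to 0.52), and the 3 wild-type control arrays had an SD of 0.68. Axin2, a scaffold of the destruction complex and a feedback target, rose by 0.76 in wild type. In knockout its 0.41 did not pass (adjusted p = 0.0644), and the interaction of -0.35 (95% interval -0.82 to 0.12) did not pass either, so a difference between the genotypes was not shown. Nkd1, a feedback inhibitor, rose by 0.27 and 0.37. Notum, a secreted enzyme that removes the lipid from Wnt ligands, was the called lower gene. It fell by 0.68 in knockout, its 0.39 in wild type did not pass, and the interaction was -1.07 (adjusted p = 0.0301, and 0.0578 to 0.0772 without 8 of the 12 arrays, all but wild-type control array 2, knockout control array 2, wild-type Wnt3a array 1 and knockout Wnt3a array 1).

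**Figure D4:**
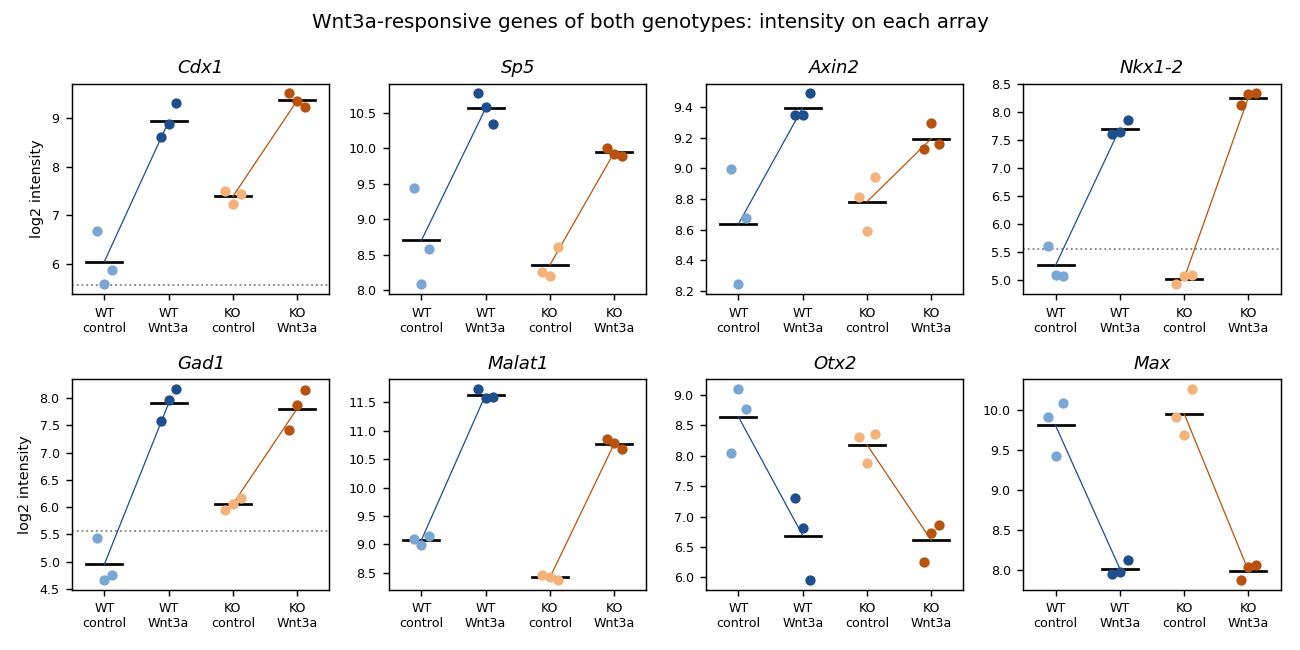
Log2 intensity (vertical axis) of 8 genes among the largest or best-known Wnt3a responses, on each of the 12 arrays by genotype (WT, KO) and medium, with black bars for means of 3 and a dotted line at the floor of 5.56. Each gene moved in the same direction in both genotypes, for example Malat1 from 9.07 to 11.64 in wild type and from 8.42 to 10.77 in knockout, and of the 8 only Nkx1-2 has a called interaction.

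Nkx1-2, a homeobox gene of the caudal epiblast, responded more in knockout. It read 5.61, 5.10 and 5.09 in wild-type control and 7.61, 7.64 and 7.85 with Wnt3a, and 4.93, 5.08 and 5.09 in control medium and 8.12, 8.31 and 8.33 with Wnt3a in knockout. Both control means were below the floor, so the rises are at least 4.36-fold in wild type and at least 6.47-fold in knockout, as ratios to arrays raised to the floor. The interaction was 0.79 ± 0.18 (adjusted p = 0.0382, and 0.0501 to 0.0903 without 8 of the 12 arrays, all but wild-type control array 1, wild-type control array 2, wild-type Wnt3a array 1 and knockout Wnt3a array 1), and 0.57 with values below the floor raised to it. Gad1, a glutamate decarboxylase with high Wnt3a responses here, read 5.44, 4.66 and 4.75 in control medium and 7.58, 7.97 and 8.17 with Wnt3a in wild type and 5.95, 6.05 and 6.16 in control medium and 7.41, 7.87 and 8.15 with Wnt3a in knockout. The Wnt3a arrays of the genotypes overlapped while wild-type control was below the floor and below knockout control, so the wild-type rise was at least 5.08-fold. Its interaction of -1.20 (adjusted p = 0.0562) did not pass, and it was -0.59 with values below the floor raised to it.

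The largest shared changes also included a non-coding RNA and factors that fell. Malat1, a nuclear non-coding RNA, rose 5.91-fold in wild type and 5.12-fold in knockout, with an interaction of -0.21 (95% interval -0.42 to 0.01). Its wild-type arrays read 9.09, 8.99 and 9.14 in control medium and 11.74, 11.57 and 11.60 with Wnt3a, and its knockout arrays 8.45, 8.43 and 8.37 in control medium and 10.85, 10.79 and 10.68 with Wnt3a. No groups overlapped. In the ranking of called knockout rises, which passed over RIKEN, predicted and accession-like gene names, only Nkx1-2 rose more. Max, the dimer partner of Myc proteins, fell in both genotypes, the differences being -1.79 and -1.96. Otx2, a homeobox factor of the formative epiblast, read 8.05, 9.09 and 8.77 in wild-type control and 7.30, 6.80 and 5.96 with Wnt3a, and 8.31, 7.88 and 8.35 in control medium and 6.25, 6.72 and 6.85 with Wnt3a in knockout. It fell in both genotypes, the differences being -1.95 and -1.57, with an interaction of 0.38 (95% interval -0.62 to 1.38). The width of that interval allows differences of more than 2-fold, so like responses were not shown for Otx2. Spike-in RNA differed between the media in both genotypes, and its part in these shared changes was not tested.

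Outside the lists, the largest negative interaction among the named genes was that of Gsta3, a glutathione transferase. It read 6.13, 6.23 and 6.12 in wild-type control and 7.74, 8.17 and 8.72 with Wnt3a, and 10.20, 9.76 and 10.00 in control medium and 10.07, 9.84 and 9.49 with Wnt3a in knockout. It rose by 2.05 in wild type and stayed below every knockout array, and the interaction was -2.23 ± 0.30 (adjusted p = 0.00468). Ntn1, the secreted guidance and survival factor netrin-1, read 8.97, 8.84 and 8.73 in control medium and 10.78, 10.83 and 11.09 with Wnt3a in wild type and 10.95, 10.60 and 10.98 in control medium and 11.07, 11.09 and 10.90 with Wnt3a in knockout. Wild-type control arrays stood alone, and the other 3 groups overlapped. Ntn1 rose 4.15-fold in wild type, its knockout effect was 0.18 (not passed), and the interaction was -1.88 ± 0.16 (adjusted p = 0.00106).

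Kit, the receptor of stem cell factor, rose in both genotypes. It read 8.74, 8.68 and 8.67 in control medium and 10.43, 10.69 and 10.90 with Wnt3a in wild type, and 10.20, 10.14 and 10.10 in control medium and 10.67, 10.75 and 10.73 with Wnt3a in knockout. The control groups were far apart and the Wnt3a groups overlapped, with rises of 1.98 and 0.57 and an interaction of -1.41 ± 0.14 (adjusted p = 0.00106). Ccnd2, the cell-cycle regulator cyclin D2, read 8.76, 9.18 and 8.54 in control medium and 10.03, 10.19 and 10.45 with Wnt3a in wild type and 9.55, 9.56 and 9.87 in control medium and 9.44, 9.26 and 8.95 with Wnt3a in knockout. The wild-type rise was 1.40, the -0.44 in knockout did not pass, and the interaction was -1.84 ± 0.25 (adjusted p = 0.00468).

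Csrnp3, a nuclear protein of the cysteine-serine-rich family, moved in opposite directions. It rose from 5.86, 5.77 and 5.91 to 6.43, 6.49 and 6.45 in wild type and fell from 7.80, 7.37 and 7.81 to 6.87, 6.82 and 6.93 in knockout, with an interaction of -1.40 ± 0.15 (adjusted p = 0.00118). No groups overlapped in either genotype. Rsph4a, a radial spoke protein of motile cilia, was above the floor in 1 group. It read 7.20, 6.66 and 7.23 on knockout control arrays and 5.33, 5.42 and 5.29 with Wnt3a, and both wild-type means (5.18 and 5.23) were below the floor, so the fall in knockout was at least 2.77-fold (interaction -1.73, adjusted p = 0.0109). Myo1f, an unconventional myosin of blood cells, had an interaction of -2.04 (adjusted p = 0.0202, and 0.0506 to 0.0591 with the omission of wild-type control array 1, wild-type control array 3, knockout control array 1, knockout control array 3 or wild-type Wnt3a array 2). The calls of Gsta3, Ntn1, Kit, Ccnd2, Csrnp3 and Rsph4a held without any single array, and that of Gsta3 was lost on the linear scale. The filter on low intensity was not repeated in the fits that left out an array, which bears on Rsph4a.

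Among 27 genes of the actin cytoskeleton 10 fell and 2 rose with Wnt3a in wild type, where 22.6% and 18.9% of all genes tested did. In knockout 2 fell and 4 rose, where 14.7% and 13.3% of all genes did. Of the 27 tested members of the actin and SRF-linked list, 3 were called higher and none lower, where 2.2% of all genes tested were called higher, and the median was 0.19. At an unadjusted p below 0.05, 8 were higher and 0 lower, where 11.4% and 9.98% of all genes tested were. Leaving out single arrays gave 1 call without wild-type control array 3 and 2 to 4 calls otherwise, with 2 without knockout control array 2. Zyx, the focal adhesion protein zyxin, read 10.41, 9.78 and 10.22 in wild-type control and 9.89, 9.62 and 9.41 with Wnt3a, and 7.99, 8.04 and 8.02 in control medium and 9.03, 8.91 and 8.83 with Wnt3a in knockout. The wild-type groups overlapped, the knockout groups did not, and every knockout array was below every wild-type array. Zyx fell by 0.50 in wild type and rose by 0.91 in knockout, an interaction of 1.41 ± 0.21 (adjusted p = 0.0067) that held without any single array.

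Cav1, which coats membrane caveolae, fell by 1.29 in wild type, from 8.80, 7.97 and 8.39 to 7.01, 7.08 and 7.19. In knockout it read 5.70, 5.91 and 5.79 in control medium and 5.68, 5.71 and 5.67 with Wnt3a, close to the floor, so a fall there could hardly have been measured. Its interaction was 1.18 (adjusted p = 0.0175, and 0.0517 with the omission of wild-type control array 3). Anxa3, an annexin, fell by 0.53 in wild type and rose by 0.61 in knockout (interaction 1.14, adjusted p = 0.0419, and 0.0609 to 0.0993 without 9 of the 12 arrays, all but wild-type control array 2, wild-type Wnt3a array 1 and knockout Wnt3a array 1), and its call was lost on the linear scale. Cnn1 and Acta1, smooth and skeletal muscle contractile genes, had interactions of 0.90 and 0.73 that did not pass. Csrp1, a LIM protein that bundles actin, was outside the list and read 12.51, 11.89 and 12.20 in control medium and 11.70, 11.48 and 11.32 with Wnt3a in wild type and 9.82, 9.76 and 9.41 in control medium and 9.96, 10.38 and 10.59 with Wnt3a in knockout. Its effects of -0.70 and 0.64 were both called, with an interaction of 1.34 (adjusted p = 0.0204, and 0.0511 to 0.057 with the omission of wild-type control array 3, knockout control array 3, wild-type Wnt3a array 2 or knockout Wnt3a array 2).

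**Figure D5:**
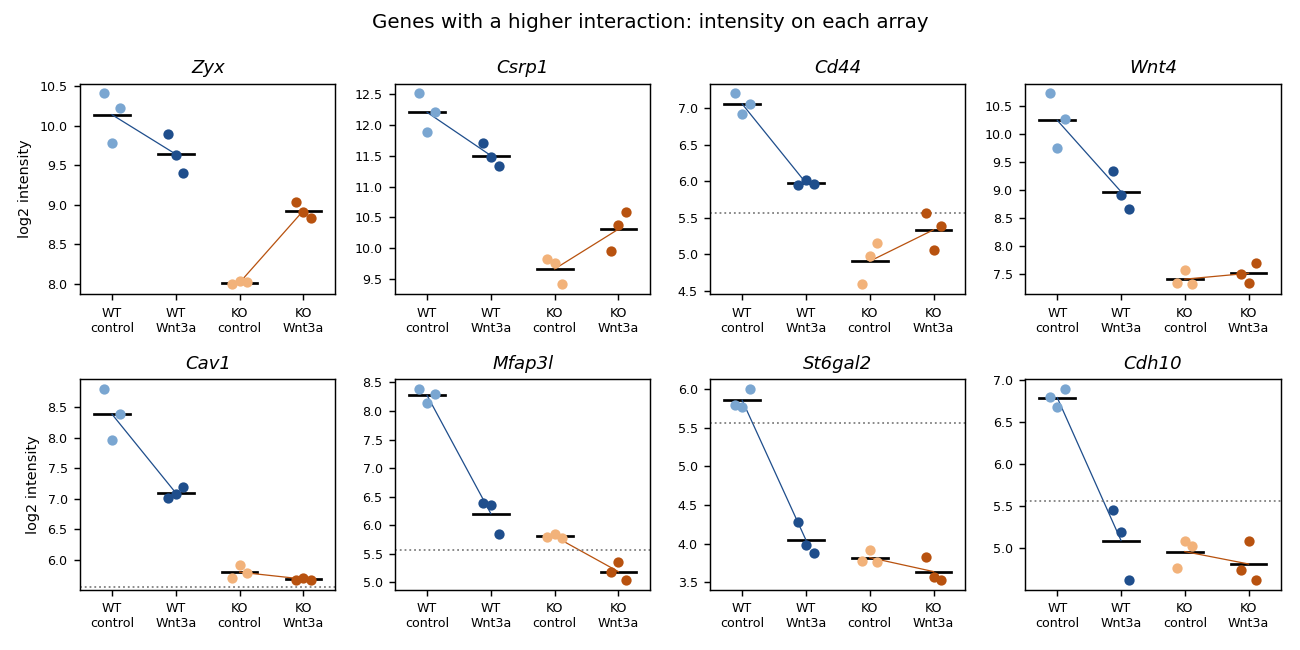
Log2 intensity (vertical axis) of 8 genes with a called higher interaction on each of the 12 arrays, by genotype (WT, KO) and medium, with black bars for means of 3 and a dotted line at the floor of 5.56. Wild-type control is the highest group in every panel, Zyx, Csrp1 and Cd44 have a higher mean with Wnt3a in knockout, and the knockout means of Cd44, St6gal2 and Cdh10 lie below the floor.

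Mfap3l, a membrane protein of the immunoglobulin superfamily, fell in both genotypes. It read 8.39, 8.14 and 8.29 in control medium and 6.39, 6.36 and 5.85 with Wnt3a in wild type, and 5.80, 5.84 and 5.77 in control medium and 5.17, 5.35 and 5.04 with Wnt3a in knockout. The wild-type Wnt3a arrays ended just above the knockout control arrays, and the wild-type fall of 4.2-fold gave an interaction of 1.45 ± 0.19 (adjusted p = 0.00411), or 1.83 with values below the floor raised to it. Cd44, a hyaluronan receptor listed among Wnt targets, fell by 1.08 in wild type, from 7.20, 6.91 and 7.05 to 5.95, 6.01 and 5.97. Both knockout means (4.91 and 5.34) were below the floor, so the size of the called 0.43 there has no meaning as a level, and the interaction of 1.51 (adjusted p = 0.00502) became 1.08 with values raised to the floor. Cdh10, a neural cadherin, and St6gal2, a sialyltransferase, had interactions of 1.56 (adjusted p = 0.0109) and 1.63 (adjusted p = 0.00106). Each was above the floor only in wild-type control, where Cdh10 read 6.81, 6.68 and 6.90 and St6gal2 5.79, 5.77 and 6. With values raised to the floor their interactions were 1.24 and 0.30. Calls of Mfap3l, Cd44, Cdh10 and St6gal2 held without any single array, in fits that did not repeat the filter on low intensity. Cdh10 was above the floor on the 3 wild-type control arrays alone, so a repeated filter would have removed it without any of them.

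Smaller numbers of calls fell in other lists, each read against 4.08% of all genes tested. In the germ cell list 4 of 16 were called lower and none higher, namely Prdm14, Kit and Dppa3, already described, and Tfap2c at -0.51 (adjusted p = 0.0417, and 0.0508 to 0.104 without 9 of the 12 arrays, all but wild-type control array 2, knockout Wnt3a array 1 and knockout Wnt3a array 3), a call also lost when quantile normalization was repeated. In the Fgf and Erk list of 22, the transcription factor Etv5 was lower and the phosphatase Dusp4 higher. Etv5 rose by 0.73 in wild type and differed by 0.01 in knockout (interaction -0.72, adjusted p = 0.0206, and 0.051 to 0.0603 with the omission of wild-type control array 1, wild-type control array 3 or knockout Wnt3a array 2). Dusp4 fell by 0.63 in wild type and differed by 0.26 in knockout (interaction 0.89, adjusted p = 0.0453, and 0.0541 to 0.108 without 9 of the 12 arrays, all but wild-type control array 2, wild-type Wnt3a array 1 and knockout Wnt3a array 3). In the Bmp list 1 of 21 was called. It was Id1, a target of Bmp signals that blocks differentiation factors. Id1 read 12.63, 12.66 and 12.63 in control medium and 12.12, 11.96 and 11.73 with Wnt3a in wild type and 11.17, 11.09 and 11.49 in control medium and 11.32, 11.30 and 11.24 with Wnt3a in knockout, an interaction of 0.74 (adjusted p = 0.0261, and 0.0515 to 0.0685 without 6 of the 12 arrays, all but wild-type control array 2, knockout control array 2, knockout control array 3, wild-type Wnt3a array 1, knockout Wnt3a array 1 and knockout Wnt3a array 3).

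In the cell cycle list 3 of 32 were called. Ccnd2 was lower, as given above, and the kinase Cdk6 and the inhibitor locus Cdkn2a were higher, at 0.57 (adjusted p = 0.0268, and 0.0515 to 0.0795 without 6 of the 12 arrays, all but wild-type control array 2, knockout control array 2, knockout control array 3, wild-type Wnt3a array 1, wild-type Wnt3a array 3 and knockout Wnt3a array 1) and 1.06 (adjusted p = 0.0291, and 0.0605 to 0.0828 with the omission of wild-type control array 1, wild-type control array 3, wild-type Wnt3a array 2 or knockout Wnt3a array 2). Cdkn2a was above the floor only in wild-type control, by its group means, and its interaction was 0.46 with values raised to the floor. In the formative list 1 of 18 was called. It was Sall2, a zinc-finger gene, at 1.10 (adjusted p = 0.0175, and 0.0507 to 0.0561 with the omission of wild-type control array 3 or wild-type Wnt3a array 2). Sesn2, a stress-induced regulator of mTORC1, rose in both genotypes, by 1.08 and 0.52. Its values were 9.32, 9.28 and 9.25 in control medium and 10.47, 10.25 and 10.35 with Wnt3a in wild type and 9.55, 9.68 and 9.59 in control medium and 10.14, 10.12 and 10.11 with Wnt3a in knockout, with no overlap and an interaction of -0.56 ± 0.09 (adjusted p = 0.0106). Pfkp, the platelet form of phosphofructokinase, rose by 0.93 in wild type and differed by 0.11 in knockout, where it was brighter on every array (interaction -0.82, adjusted p = 0.0128, a call lost on the linear scale). Fbln1, an extracellular matrix protein, had an interaction of -0.88 (adjusted p = 0.00271), and Plac1, a placental gene, one of 0.78 (adjusted p = 0.0108). Pfkp was the 1 call among 27 glycolysis and hypoxia genes, and Fbln1 the 1 among 16 fibroblast and feeder markers. Plac1 and Tfap2c were the 2 called of 22 trophectoderm and simple epithelium genes. The calls of Sesn2, Pfkp, Fbln1 and Plac1 held without any single array.

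The remaining calls in the lists were few. In the general pluripotency list 2 of 24 were called, both lower, and they were Esrrb and Nanog. In the Lif and Stat3 list 2 of 18 were called, both lower, and they were Tfcp2l1 and Klf4. In the primitive streak and mesoderm list of 16, Nkx1-2 was higher and the ligand Fgf17 lower, at -0.68 (adjusted p = 0.0274, and 0.0504 to 0.0801 without 7 of the 12 arrays, all but wild-type control array 2, knockout control array 2, wild-type Wnt3a array 1, wild-type Wnt3a array 3 and knockout Wnt3a array 1). In the neural list 1 of 19 was called, the homeobox gene Meis1, with an interaction of 0.80 (adjusted p = 0.0444, and 0.0728 to 0.119 without 9 of the 12 arrays, all but wild-type control array 2, wild-type Wnt3a array 1 and knockout Wnt3a array 1). Both knockout means of Meis1 were below the floor, and its call was lost when arrays were centred or quantile normalization was repeated. In the amino acid and unfolded protein stress list 2 of 29 were called, both lower, which were Sesn2 and Shmt2, a mitochondrial enzyme of serine metabolism, at -0.43 (adjusted p = 0.0479, and 0.0693 to 0.124 without 9 of the 12 arrays, all but wild-type control array 2, wild-type Wnt3a array 1 and knockout Wnt3a array 3). The call of Shmt2 was also lost on the linear scale, without the filter, with centring and with the mean of its probe sets.

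Of the 25 lists, 7 had no called interaction in limma, where 4.08% of all genes tested were called. At an unadjusted p below 0.05, which 11.4% of all genes tested reached in the higher and 9.98% in the lower direction, the 21 endoderm genes tested and the 43 genes of the mitochondrial respiratory chain had 0, the 34 cytosolic ribosomal protein genes had 1 lower, and the 27 adhesion and epithelial-mesenchymal genes had 5 higher and 1 lower. The 20 Nodal and Activin genes had 2 higher and 2 lower, the 14 blood and endothelial markers 3 higher, and the 24 cholesterol and fatty acid genes 3 higher and 1 lower. Knockout control array 2 stood apart in genes of the endoderm list, as given above.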

How the data were processed

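RNA of the 12 samples was hybridised to Affymetrix mouse arrays. The deposited values are linear intensity per probe set, made by the authors with RMA per the submitters' processing notes, which give no version or settings. They were converted to log2 with no further normalization. The platform annotation gave 1 gene symbol for 34945 of the 45101 probe sets, several for 932 and none for 9160, beside 64 control probe sets of the array. Of the 18194 Entrez identifiers of the single-symbol probe sets, 18032 were found in the RefSeq table. Each gene was read from its brightest probe set over all arrays, and genes above the 40th percentile on at least 3 arrays were kept. The interaction was fitted with limma 3.58.1 (lmFit, eBayes) in R 4.3.3 over all 12 arrays with 1 mean per group, and p-values were adjusted by Benjamini-Hochberg over 13811 genes. The fold of an effect is 2 to the power of the log2 difference. Pearson's r between arrays of a group was 0.9923 to 0.9974. The number of arrays limits the precision.

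Named genes were the 12 largest called interactions each way, up to 4 called and 2 uncalled members of each list, a set of naive and Wnt genes, and the 6 largest Wnt3a effects each way in either genotype. Not all of these are described. The rankings by size passed over RIKEN, predicted and accession-like gene names, and genes with no group mean above the floor. The predicted gene Gm7969, with a called interaction of -1.53, was passed over in this way. The members, lists and tests were chosen with earlier results of these data known. In simulated data with 200 of 13811 genes changed, the interaction test recovered 86% at a log2 change of 1 and 46% at 0.5, and called 6 unchanged genes. The simulated noise was drawn independently for each gene and array, with no spread shared by the genes of an array or linked to 18S. These rates therefore need not hold for the measured arrays. Alternatives were another filter, none, the mean of probe sets, every probe set separately, centring, quantile normalization, a trend in the prior, array weights, a replicate block, the linear scale, a pseudocount of 32, 18S as a covariate and each array left out. With an array left out, the genes tested were still those kept on all 12 arrays.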

Additional observations from a re-analysis of the deposited data

Results flagged for a closer look

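The response to Wnt3a differed between the genotypes by the test of the interaction itself for 304 genes in the higher direction and 259 in the lower. Among the named genes, 9 had Wnt3a effects that passed in opposite directions and a called interaction. Csrnp3 (interaction -1.40), Dppa3 (-1.11) and Klf2 (-0.92) rose in wild type and fell in knockout. Cd44 (1.51), Zyx (1.41), Csrp1 (1.34), Wnt9a (1.17), Anxa3 (1.14) and Cdkn2a (1.06) fell in wild type and rose in knockout, by the fit. Both knockout means of Cd44 and of Cdkn2a were below the floor, and with values raised to it their knockout effects were 0 and 0.04. The knockout control mean of Wnt9a was also below the floor. Over all genes tested, 31 had this form with a rise in wild type and 43 with a fall.

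Control probe sets that enter no comparison of genes also differed between groups. In wild type the Wnt3a arrays read 7.18 above the control arrays for the dap spike-in, a difference taken against control levels below the floor, and the 18S signal had an interaction of -1.15. Among 3980 tested probe sets without a single gene symbol, which were listed with several or with none, 13 had a called higher and 39 a called lower interaction, 1.31% in all. Of 24503 probe sets with a single symbol, tested separately, 458 were higher and 557 lower. The p-values of each set were adjusted within that set, so the shares do not compare directly with each other or with that of genes.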

How the results depend on the processing

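For 90 named genes, 24 alternatives gave 2147 pairs of gene and alternative, of which 1778 kept the direction and side of the threshold of the interaction, 292 lost the call, 64 gained one and 13 turned direction. With every probe set tested separately (24503), 458 interactions were higher and 557 lower, the Wnt3a effect had 5379 and 5409 calls in wild type, and 3885 and 3820 in knockout. Array quality weights gave 1597 higher and 1340 lower interactions, and 2977 and 3184 Wnt3a calls in knockout. On the linear scale 611 were higher and 398 lower. With the 18S covariate 1 was higher and 5 lower, with 11 and 1 Wnt3a calls in wild type and 375 and 477 in knockout, while 1231 interactions had an unadjusted p below 0.05, against 2951 without it. Leaving out single arrays gave 67 to 568 higher and 84 to 483 lower interactions, 1924 to 2691 higher and 2335 to 3230 lower Wnt3a effects in wild type, and 1130 to 1911 and 1263 to 2118 in knockout. Centring each array on its median moved the share of calls that were higher from 45.6% to 61.4% in wild type, from 47.5% to 66.2% in knockout and from 54% to 50.7% for the interaction. With no fold minimum, the median effect in the other genotype was 0.21 and 0.29 for rises in wild type and knockout, and -0.22 and -0.33 for falls. The cause of these differences was not tested. Interactions that had not passed turned direction for Malat1 (0.072) and Ctnnb1 (-0.087) with the mean of probe sets, for Pou5f1 with quantile normalization (0.0043), for Cdx1 (63.3) and Socs3 (224) on the linear scale in intensity units, and for Lgr5 (0.39) and Lef1 (-0.067) with the 18S covariate. With single arrays left out, that of Pou5f1 ran from -0.12 to 0.0056, that of Sp5 from -0.65 to 0.031, that of Max from -0.31 to 0.019 and that of Lgr5 from -0.16 to 0.056.

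Same-numbered arrays of different groups did not deviate together, with correlations of -0.26 to 0.24 over 18 pairs, and 1 array correlated best with its own number. A fit with the replicate number as a block gave 221 higher and 173 lower interactions, 2474 and 3000 Wnt3a calls in wild type, and 1663 and 1890 in knockout. Of the genes described, Nkx1-2, Anxa3 and Shmt2 lost their call in it.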

Other observations

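Genes with several probe sets gave more than 1 reading of the interaction within the array. Of 6245 genes with at least 2 probe sets above the floor, 126 had called interactions in at least 2 probe sets, and 1 of these had calls of opposite direction. In the 2-cell-like list, whose members mark a rare state of these cultures, 5 of 16 genes were tested. All 5 rose with Wnt3a in wild type, where 18.9% of all genes tested rose. None passed in knockout, where 13.3% rose and 14.7% fell. The median effects were 0.78 and 0.14. The interaction of 1, Sp110, was called lower, where 1.88% of all genes tested were. For the others a difference between the genotypes was not shown. Sp110, a nuclear body protein, read 6.91, 6.90 and 6.87 in wild-type control and 7.77, 7.99 and 7.91 with Wnt3a, and 7.55, 7.51 and 7.43 in control medium and 7.96, 7.67 and 7.47 with Wnt3a in knockout, an interaction of -0.79 (adjusted p = 0.0175, and 0.0507 to 0.0553 with the omission of wild-type control array 3 or wild-type Wnt3a array 2). Its call was also lost with the mean of its probe sets.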
